A study of Mus musculus with 78 samples.

Results

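The genes described here are 10 regulators of mitochondrial biogenesis, taken by mouse symbol: the coactivators Ppargc1a and Ppargc1b, the nuclear receptors Esrra, Esrrg, Ppara and Ppard, the nuclear respiratory factors Nrf1 and Gabpa, the mitochondrial transcription factor Tfam and the mitochondrial deacetylase Sirt3. They are 10 of the 36904 gene IDs in the deposited table of soleus RNA, and all 10 are among the 18218 genes tested after a filter on low counts. No library held fewer than 46 counts of any of them.

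The series measured bulk RNA of the soleus, a calf muscle rich in slow fibres, in 78 libraries of C57Bl/6 mice. C57Bl/6 is the only genotype the labels name, and no transgene or deletion is given for any group. Untreated mice of batch 1 were labelled 6 months (4 F, 6 M), 12 months (6 F, 6 M), 20 months (6 F, 9 M) and 28 months (6 F, 5 M). Batch 2 held controls of 28 months (7 F, 10 M) and 12 males of 28 months given feed with 2% CaAKG, the calcium salt of alpha-ketoglutarate, a metabolite of the citric acid cycle. The 12-month F count is after adding up 2 libraries that carry the same animal tag, which leaves 77 replicates. By the design text, mice bought at 6 and 12 months came from a Singapore supplier and those bought at 20 months from an American one, so for 20 against 6 or 12 months age and supplier cannot be told apart. It also tells of a separate set of mice that arrived at 17 months and was randomised to control feed or compounds. The labels call batch only 1 or 2.

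As background, PGC-1 coactivators (Ppargc1a and Ppargc1b) bind no DNA themselves. They are recruited by nuclear receptors of the ERR and PPAR families and by the factors NRF1 and GABP, which switch on nuclear genes for respiratory chain subunits and for TFAM, the protein that packs and transcribes the mitochondrial genome. SIRT3 removes acetyl groups from enzymes inside the organelle, and in slow muscle this set of factors is known to help keep mitochondrial content and fat oxidation high.

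Library totals ran from 19460372 to 81637535 expected counts (median 35209190), and the messenger RNAs of the mitochondrial genome took 9.92 to 44.03% of a replicate's counts (median 17.97). Slow-fibre marker genes summed to between 9290 and 54480 CPM (each library's counts scaled to the same total) in every replicate, so the fibre type that the tissue label implies was present throughout. Fast-fibre marker genes summed to between 15250 and 68470 CPM, above the slow-fibre sum in part of the replicates. The top value, beside a slow-fibre sum of 34020 CPM, was that of 28-month F batch 1 replicate 9, which is not among the doubted libraries named below. Sex-linked transcripts went against the label in 5 libraries, those labelled 12-month F replicates 1 and 4, 12-month M replicate 3, 6-month F replicate 3 and 6-month M replicate 3. Keratinocyte or neutrophil and marrow markers summed to over 100 CPM in 9 others, 28-month F batch 1 replicates 8, 10 and 12, 28-month M batch 2 replicate 4, 12-month F replicate 5 and CaAKG replicates 6, 7, 8 and 10. None of these 14 libraries is of 20 months. Where a call among the 10 changes without these 14 doubted libraries, the value without them is given below, in part of the cases beside that of all libraries. The larger changes in counts of listed genes are given too. In bulk RNA, fewer cells of a type and less RNA per cell cannot be told apart.

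Start-site windows from RefSeq (GRCm38.p6, the build of the deposited data, 250 bases before to 50 after a start) were held for 9 of the 10 genes, 14 windows in all. Those of Ppargc1a, Esrra, Ppara, Tfam, Sirt3 and Gabpa are printed, 6 of the genes that passed in an age comparison below and whose windows hold one of the motifs searched. Capitals mark exact matches, on either strand, to a CRE core (TGACGT, printed on the other strand as ACGTCA), an Sp1 box (GGGCGGGG or CCCCGCCC), the NRF1 motif or an ETS motif of the kind GABP binds (CCGGAAG or CTTCCGG).

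Ppargc1a, chr5:51567676-51567975, minus strand: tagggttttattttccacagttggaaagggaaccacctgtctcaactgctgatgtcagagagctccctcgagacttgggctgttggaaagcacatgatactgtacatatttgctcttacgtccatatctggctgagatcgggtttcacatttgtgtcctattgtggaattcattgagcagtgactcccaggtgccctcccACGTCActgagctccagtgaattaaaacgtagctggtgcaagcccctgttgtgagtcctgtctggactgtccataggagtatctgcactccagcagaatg
Esrra, chr19:6921759-6922058, minus strand: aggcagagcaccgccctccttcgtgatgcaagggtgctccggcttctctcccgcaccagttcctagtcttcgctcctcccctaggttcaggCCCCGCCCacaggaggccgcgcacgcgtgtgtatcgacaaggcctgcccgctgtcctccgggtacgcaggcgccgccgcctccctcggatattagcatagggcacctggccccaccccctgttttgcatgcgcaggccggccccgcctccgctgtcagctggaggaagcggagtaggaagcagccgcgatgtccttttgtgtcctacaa
Ppara, chr15:85735526-85735825, plus strand: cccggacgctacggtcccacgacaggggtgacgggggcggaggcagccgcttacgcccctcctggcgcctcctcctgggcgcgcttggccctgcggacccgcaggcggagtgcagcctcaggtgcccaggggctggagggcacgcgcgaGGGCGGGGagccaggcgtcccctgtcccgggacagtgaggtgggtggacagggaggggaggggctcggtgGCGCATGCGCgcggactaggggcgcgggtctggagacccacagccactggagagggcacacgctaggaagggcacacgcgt
Tfam, chr10:71237995-71238294, minus strand: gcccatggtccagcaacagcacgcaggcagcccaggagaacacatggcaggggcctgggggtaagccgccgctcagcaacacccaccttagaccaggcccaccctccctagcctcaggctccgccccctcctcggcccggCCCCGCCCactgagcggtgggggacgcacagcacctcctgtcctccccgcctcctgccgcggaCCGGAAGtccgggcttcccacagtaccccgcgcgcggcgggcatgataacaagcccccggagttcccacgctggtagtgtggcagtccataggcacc
Sirt3, chr7:140882260-140882559, minus strand: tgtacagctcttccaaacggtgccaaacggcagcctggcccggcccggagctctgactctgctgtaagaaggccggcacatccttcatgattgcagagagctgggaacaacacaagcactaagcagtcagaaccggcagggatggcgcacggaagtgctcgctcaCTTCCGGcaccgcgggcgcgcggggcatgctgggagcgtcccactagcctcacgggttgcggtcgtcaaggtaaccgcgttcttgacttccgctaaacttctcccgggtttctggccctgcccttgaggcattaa
Gabpa, chr16:84834874-84835173, plus strand: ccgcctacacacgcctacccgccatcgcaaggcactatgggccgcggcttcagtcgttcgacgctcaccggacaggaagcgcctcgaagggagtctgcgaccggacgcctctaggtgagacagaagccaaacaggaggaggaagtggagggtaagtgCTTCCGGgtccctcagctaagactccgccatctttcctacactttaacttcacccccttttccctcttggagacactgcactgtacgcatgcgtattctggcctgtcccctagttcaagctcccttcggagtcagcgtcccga

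The ETS motif stood at position -47 of Tfam, -93 of Gabpa and -85 of Sirt3 counted from the start, and 8.858% of 32851 mouse windows of the same length held it. The CRE core stood at position -50 of Ppargc1a and in 7.513% of all windows. An Sp1 box, present in 17.592% of windows, was found in the windows of Esrra (at -159), Tfam, Nrf1, Ppara, Ppard and, in a second window, Sirt3. Ppara alone among the 9 held the NRF1 motif (at -31, 4.603% of windows). The ERR element TCAAGGTCA (0.423% of windows), the full CRE TGACGTCA (1.79%) and the MEF2 motif CTAAAAATA (0.517%) had no exact match in the 14 windows.

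By position (mm10, GENCODE M21), Ppargc1a lies at chr5:51454250-51567726 (ENSMUSG00000029167) and Esrra at chr19:6910977-6921813 (ENSMUSG00000024955), both on the minus strand. Exons of Esrra overlap Trmt112 on the other strand and Mir6990 over 3.74% of their length, those of Gabpa overlap Atp5j over 6.98%, and those of Sirt3 overlap Psmd13 and Ric8a over 12.72%. The strand setting of the counting is not given in the sources used here, so for these 3 genes a part of the counts may belong to the neighbour.

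Per kilobase of the longest coding transcript, Esrra, the receptor ERR alpha, was the most abundant of the 10, at a mean of 88.0 ± 31.7 CPM per kb (SD, n = 77). Esrrg (ERR gamma) followed at 19.9 ± 8.82 and Sirt3 at 15.9 ± 5.90 CPM per kb, 2 neighbours whose spreads overlap. Tfam stood at 10.4 ± 1.70, Ppard at 9.06 ± 2.54 and Gabpa at 8.67 ± 1.48 CPM per kb. Ppargc1a, Ppara, Nrf1 and Ppargc1b closed the order, with means of 7.02 ± 4.24, 6.61 ± 3.82, 3.86 ± 0.426 and 2.17 ± 1.09 CPM per kb. Only Esrra and Esrrg, and Nrf1 and Ppargc1b, were neighbours whose mean ± SD did not overlap. Across the 11 groups Ppara varied most, its highest group mean being 4.88 times its lowest, before Ppargc1a (3.82 times), Ppargc1b (3.50) and Esrrg (3.15). Nrf1 (1.22), Tfam (1.35) and Gabpa (1.52) varied least.

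**Figure D1:**
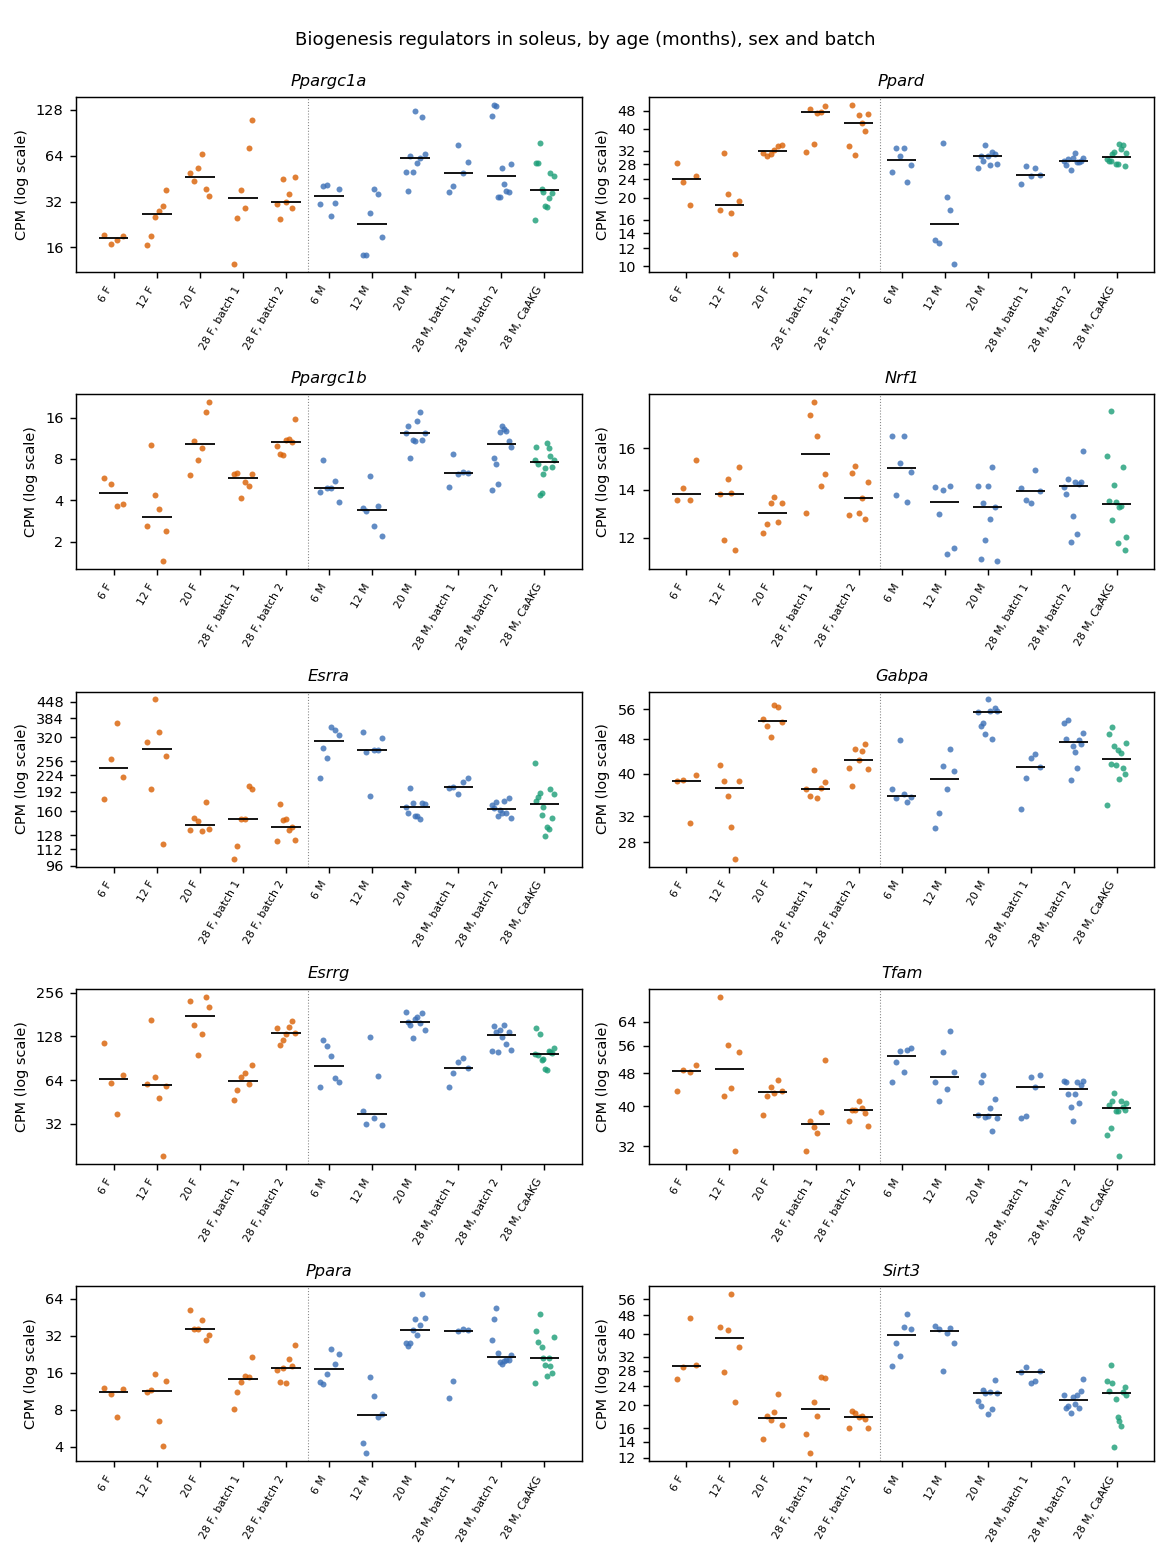
CPM of each of the 10 regulators (log axis) in every replicate, with a black line at each group's median; orange marks females, blue male controls and green CaAKG males, and labels give the age in months. Esrra and Sirt3 lie lower at 20 months than at 6 months with no overlap in either sex, while Ppara and Ppargc1b lie higher in both sexes, again with no overlap.

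At 20 against 6 months most of the regulators changed, and they did not change together. In females 6 rose and 2 fell of 10, where 36% of all 18218 genes passed, 18.2% higher and 17.8% lower (edgeR quasi-likelihood test, adjusted p below 0.05 after Benjamini-Hochberg adjustment over all genes). In males 5 rose and 4 fell, where 44.5% of all genes passed, 22.5% higher and 22% lower. The PGC-1 coactivators, Esrrg, Ppara and Gabpa rose in both sexes, and Esrra and Sirt3 fell in both. Ppard was the sixth to rise in females, a call that is lost without the doubted libraries (35.4% of all genes then passed). At 28 months (batch 1) against 6 months fewer passed: 2 rose and 3 fell in females (18.8% of all genes, 9.82% higher and 8.97% lower) and 2 fell in males (16.1%, 9.37% lower). Without the 14 doubted libraries 2 rose and none fell in females (7.32% of all genes), and 3 fell in males (24.7%). Both comparisons use the same 6-month mice, so they are not independent of each other. Batch 2 controls of 28 months, whose age and batch both differ from those of the 6-month mice, had 3 regulators higher and 3 lower in each sex, where 32.5% of all genes passed in females (15.5% higher and 17% lower) and 37.3% in males (18.7% each way). The median log2 fold change of the 10 was 0.48 in females and 0.28 in males at 20 months, beside 0.0017 and 0.024 over all genes, and 0.089 and -0.13 at 28 months, beside 0.091 and 0.019.

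**Figure D2:**
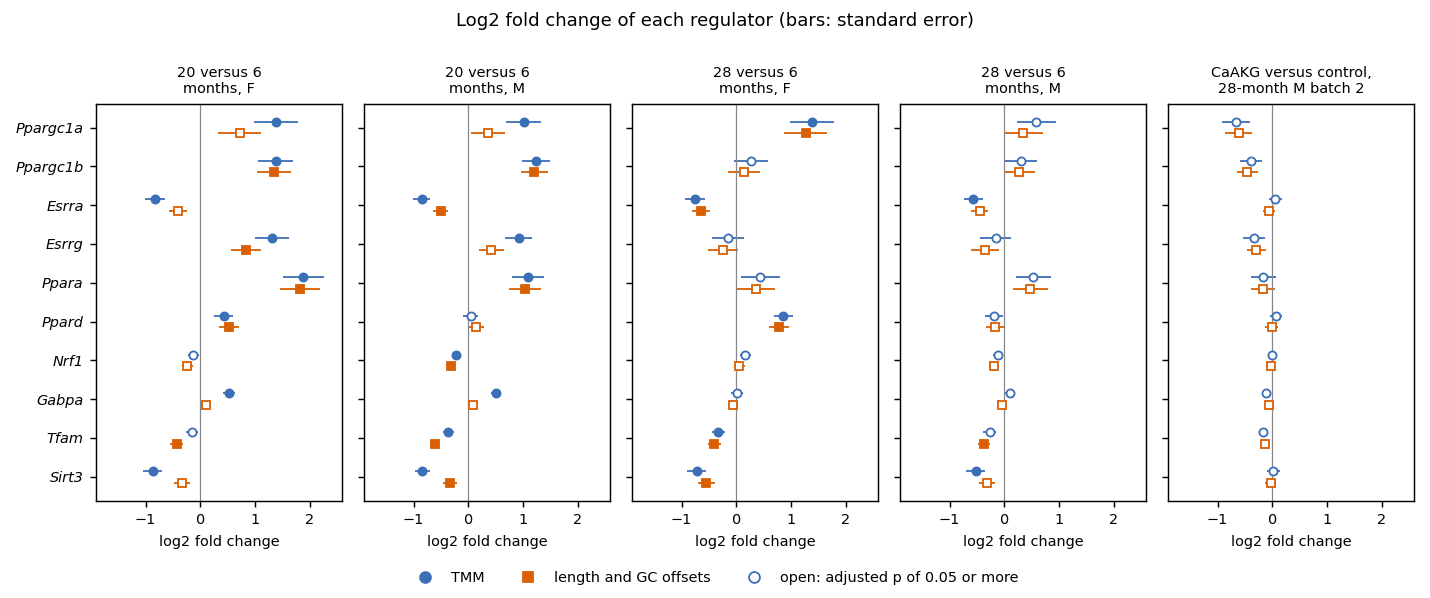
Log2 fold change of each regulator with its standard error in 5 comparisons; blue circles are the edgeR values with TMM factors, orange squares the values with offsets for transcript length and GC content, and open symbols did not pass an adjusted p of 0.05. At 20 months the offsets draw Ppargc1a, Esrra, Gabpa and Sirt3 towards 0, while Ppargc1b and Ppara stay above 1 in both sexes.

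The 10 transcripts run from 1606 bases (Sirt3) to 6464 bases (Ppargc1a), and the values were recomputed with an offset for each library's own trend on transcript length and GC content. With these offsets 4 regulators rose and 1 fell in females (16.9% of all genes passed), and 2 rose and 4 fell in males (29.3%). At 28 months they left 2 higher and 3 lower in females (11.5% of all genes) and 1 lower in males (10.3%). Ppara and Ppargc1b rose and Tfam fell in both sexes under the offsets. Ppard and Esrrg rose in females, and Esrra, Nrf1 and Sirt3 fell in males. Ppargc1a (0.72 in females and 0.36 in males, adjusted p = 0.22 and 0.43) and Gabpa (0.10 and 0.09) did not pass under the offsets in either sex.

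Ppargc1a encodes PGC-1 alpha, the coactivator that exercise and fasting are known to induce in muscle. In 6-month females its CPM were 19.3, 16.7, 17.9 and 19.1, and in 20-month females they ran from 35.04 over a median of 46.3 to 66.0. No 20-month female fell as low as a 6-month female. The log2 fold change was 1.38 (SE 0.40, adjusted p = 0.0041), a 2.61-fold difference. In males the 6-month replicates ran from 25.7 over a median of 34.9 to 40.9 CPM, and those of 20 months from 37.5 over 62.0 to 125.5, so the groups overlap at their edges. The male log2 fold change was 1.01 (SE 0.32, adjusted p = 0.0071).

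Its values at 28 months were scattered. Females of batch 1 had 12.48, 24.8, 38.2, 29.1, 71.6 and 110.0 CPM in replicates 8 to 13. Replicate 8, which holds keratinocyte transcripts, lies below every 6-month female, and the other 5 lie above all of them. The log2 fold change was 1.39 (SE 0.40, adjusted p = 0.011). It was 1.62 without the doubted libraries and 0.93, no longer past the threshold, without replicate 13. It also missed the threshold with limma-voom (1.12, adjusted p = 0.086). Females of batch 2 ran from 24.5 over 31.9 to 46.6 CPM, a log2 difference of 0.93 from 6 months (SE 0.39, adjusted p = 0.057).

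Among 28-month males of batch 1 the Ppargc1a values were 36.7, 40.2, 75.5, 49.4 and 58.4 CPM. In 3 of the 5 the level was above the highest 6-month male, and the difference did not pass (0.59, SE 0.36, adjusted p = 0.29). In the 10 male controls of batch 2, replicates 1, 2 and 3 stood at 116.2, 138.7 and 136.3 CPM, and the other 7 between 34.2 and 56.8. The same 3 replicates had the highest Ppara values of that group (29.6, 43.4 and 53.9 CPM), and their Ppargc1b values (4.75, 8.13 and 7.39 CPM) lay below the group's median of 10.3.

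Ppargc1b encodes PGC-1 beta, the coactivator linked to basal mitochondrial content. Its CPM in 6-month females were 5.79, 5.25, 3.66 and 3.78, and in 20-month females they ran from 6.16 over 10.2 to 20.7. In males they ran from 3.89 over 4.90 to 7.82 at 6 months and from 8.06 over 12.3 to 17.6 at 20 months. Neither sex overlapped. The log2 fold changes were 1.38 (SE 0.32, adjusted p = 0.00029) and 1.24 (SE 0.26, adjusted p = 4.6e-05), and with the length and GC offsets 1.35 and 1.21.

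At 28 months the level of Ppargc1b differed between the batches in females, and the male difference did not pass. Batch 1 females ran from 4.13 over 5.82 to 6.31 CPM, against 8.48 over 10.7 to 15.6 in batch 2, and no batch 2 female was as low as any of batch 1. The batch 1 values did not pass against 6 months in females (0.27, adjusted p = 0.58) or males (0.31, adjusted p = 0.54). Batch 2 against batch 1 gave 0.95 in females (SE 0.27, adjusted p = 0.0087), where 19.7% of all genes passed. In males that difference was 0.60 (SE 0.26, adjusted p = 0.28), where 1.02% of all genes and none of the 10 passed in edgeR, 4 of the 10 having an unadjusted p under 0.05. Without the doubted libraries 1 of the 10, Esrrg, was higher in batch 2 males than in batch 1 males (0.76, adjusted p = 0.02), beside 4.61% of all genes. Mice of batch 2 differed from 6-month mice in age and batch together, by 1.22 in females and 0.90 in males.

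Esrra, whose protein ERR alpha binds promoters of respiratory chain genes with PGC-1, fell in the 20-month and both sets of 28-month controls against 6 months. Its CPM in 6-month females were 180.1, 261.1, 366.6 and 221.2, and at 20 months they ran from 132.6 over 140.6 to 174.7. Males ran from 217.8 over 309.5 to 354.2 at 6 months and from 149.2 over 166.3 to 198.9 at 20 months. The groups do not overlap in either sex. Log2 fold changes were -0.82 (SE 0.18, adjusted p = 0.00018) and -0.85 (SE 0.15, adjusted p = 1.7e-06). With the offsets they were -0.40 (adjusted p = 0.088) in females and -0.51 in males, the latter past the threshold.

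The same gene at 28 months ran from 102.6 over 149.4 to 202.8 CPM in batch 1 females, 1 of the 4 young females lying inside that range. The difference was -0.75 (SE 0.18, adjusted p = 0.0028). Without the library labelled 6-month F replicate 3, the highest of the young females, it was -0.51 and no longer passed, and without all doubted libraries it was -0.49 (adjusted p = 0.082). In males the 5 values of 28 months were 198.8, 200.8, 188.2, 210.2 and 217.9 CPM. Only the highest of them reaches the lowest 6-month male, and the difference was -0.56 (SE 0.18, adjusted p = 0.02). It missed the threshold with the offsets (-0.45, adjusted p = 0.053) and without 6-month M replicate 6. Batch 2 controls of 28 months, at 120.5 to 172.0 CPM in females and 150.2 to 181.1 in males, lie below all 6-month mice of their sex.

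Esrrg, which encodes the ERR form known for high levels in slow, oxidative fibres, moved the other way at 20 months. Its CPM were 115.4, 61.0, 37.3 and 69.0 in 6-month females and ran from 94.9 over 177.8 to 238.8 at 20 months. In males they ran from 57.1 over 80.4 to 121.2 and from 123.99 over 161.2 to 188.9. 1 young female lies inside the 20-month range, and the male groups do not overlap. The log2 fold changes were 1.305 (SE 0.31, adjusted p = 0.00046) and 0.92 (SE 0.25, adjusted p = 0.0015), and with the offsets 0.83 and, not past the threshold, 0.42 (adjusted p = 0.15).

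By 28 months in batch 1 Esrrg was at 46.4 to 81.9 CPM in females and at 57.3, 71.7, 85.7, 90.9 and 77.1 CPM in males, all below every 20-month mouse of their sex. Against 20 months it fell by 1.45 in females (SE 0.27, adjusted p = 4.9e-05) and by 1.08 in males (SE 0.27, adjusted p = 0.003). Against 6 months the differences were -0.15 in both sexes. Batch 2 females stood higher, from 111.8 over 135.1 to 164.0 CPM, 1.10 above batch 1 (SE 0.26, adjusted p = 0.0026). The sign of the female difference from 6 months therefore turned to 0.95 (adjusted p = 0.0093) when batch 2 controls replaced those of batch 1, and to 0.60 (adjusted p = 0.12) under the offsets. In males that difference was 0.57 (adjusted p = 0.057), and 0.70 (adjusted p = 0.0041) without the doubted libraries.

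In 28 against 20 months, 2 of the 10 rose and 4 fell in females (29.8% of all genes passed, 17.2% higher and 12.5% lower), and 3 fell in males (16.9%, 8.73% lower). Ppargc1b and Gabpa fell beside Esrrg in both sexes, by 1.12 and 0.51 in females and by 0.93 and 0.41 in males. Ppara fell in females by 1.44 (SE 0.31, adjusted p = 0.00035), while Ppard (0.43) and Nrf1 (0.28) rose. With the doubted libraries left out Sirt3 was higher in 28-month than in 20-month males (0.32, adjusted p = 0.045). The offsets left Ppargc1b as the only call in males (2.82% of all genes), and in females (15.3%) kept the falls of Esrrg, Ppara and Ppargc1b and the rise of Nrf1.

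Ppara encodes PPAR alpha, the receptor that drives genes of fatty acid oxidation. In females it rose from 12.0, 10.7, 6.98 and 11.7 CPM at 6 months to a range of 29.6 over 36.2 to 52.1 at 20 months. In males the ranges were 13.0 over 17.2 to 25.0 and 26.6 over 35.8 to 69.2. The groups do not overlap, and the log2 fold changes were 1.89 (SE 0.37, adjusted p = 2.3e-05) and 1.09 (SE 0.29, adjusted p = 0.0011). With the offsets they were 1.83 and 1.04, the least moved of the 10 beside those of Ppargc1b. The male minus female difference of these changes, -0.79, did not pass its own test (adjusted p = 1). In that interaction edgeR called 0% of all genes, and 0 of the 10 had an unadjusted p under 0.05.

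At 12 months Ppara was the lowest of any age in males, from 3.54 over 7.22 to 14.7 CPM, and it fell by 1.202 against 6 months (SE 0.32, adjusted p = 0.0085). The male groups share a narrow band between 13.0 and 14.7 CPM, in which the only 12-month value is that of replicate 3, a library against its sex label. Its 28-month values did not pass against 6 months in either sex (0.44 and 0.53). The 5 males of batch 1 split into 10.0 and 13.8 CPM on one side and 34.8, 36.1 and 35.8 on the other.

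Ppard encodes PPAR delta, a receptor linked to oxidative fibres. At 20 months it ran from 30.5 over 31.9 to 33.8 CPM in females, above all young ones, and from 27.0 over 30.3 to 34.1 in males. The female difference of 0.43 from 6 months (SE 0.17, adjusted p = 0.042) was close to the threshold. It was lost without any 1 of 7 of the 10 replicates, with values of 0.33 to 0.45, and without the doubted libraries (0.33, adjusted p = 0.052), and it passed with the offsets (0.53). At 28 months Ppard differed between the sexes. The 4 young females had 28.4, 23.5, 18.5 and 24.9 CPM, and 28-month females of batch 1 had 31.5, 48.8, 34.4, 47.0, 47.3 and 50.3 CPM in replicates 8 to 13. Every old female lies above every young one, and Ppard rose by 0.86 (SE 0.17, adjusted p = 0.0006). Males had 23.4 over 29.1 to 33.0 CPM at 6 months and 22.9, 27.5, 24.8, 26.9 and 25.2 at 28 months, a difference of -0.18 (adjusted p = 0.5).

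The male change was below the female one by 1.04 (interaction of sex and age -1.04, SE 0.24, adjusted p = 0.038), where 0.28% of all genes passed and Ppard was the only one of the 10. Once the 14 doubted libraries were left out, the interaction was -1.13 and passed, and with the offsets -0.95 and did not pass. Directly compared at 28 months, males were below females by 0.76 in batch 1 (SE 0.16, adjusted p = 0.0035), where 5.37% of all genes passed, and by 0.52 in batch 2 (SE 0.13, adjusted p = 0.021), where 1.28% did. With the offsets the batch 1 difference passed (-0.66) and the batch 2 difference did not (-0.39, adjusted p = 0.14). Batch 2 females ran from 30.8 over 42.5 to 50.9 CPM and batch 2 males from 26.3 over 28.9 to 31.3, with 1 female within the male range. At 6, 12 and 20 months none of the 10 differed between the sexes in edgeR (0%, 0.022% and 0.214% of all genes passed), with 2, 0 and 0 at an unadjusted p under 0.05. In the fit without doubted libraries 2 were lower in 12-month males than in females, Esrrg (-1.27) and Ppard (-0.72), beside 5.04% of all genes, and Ppargc1a was higher in batch 2 males of 28 months (1.03, adjusted p = 0.046), beside 2.99%.

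Between 6 and 12 months in males Ppard fell by 0.68 (SE 0.15, adjusted p = 0.0024), from the range above to one of 10.3 over 15.3 to 34.8 CPM, whose top value is again the library labelled 12-month M replicate 3. Ppara and Ppard were the only 2 of the 10 called there, beside 9.77% of all genes, 6.77% lower. Without the doubted libraries 5 fell, with Esrrg (-0.98), Ppargc1b (-0.83) and Nrf1 (-0.26) added, beside 20.3% of all genes. In females none passed in edgeR at 12 months (0.225% of all genes) and none had an unadjusted p under 0.05. Against 12 months the 20-month mice showed the same calls as against 6 months for both coactivators, Esrra, Esrrg, Ppara, Gabpa and Sirt3, and Ppard was higher too, by 0.71 in females and 0.73 in males (6 rose and 2 fell in females beside 25.3% and 24.4% of all genes, 49.7% in all, and 6 and 3 in males beside 24.7% and 23.4%, 48.1% in all). The female call of Ppargc1a there (0.87) was lost without the doubted libraries (0.80, adjusted p = 0.13). With the offsets Gabpa in both sexes, Ppargc1a in females and Sirt3 in males did not pass against 12 months.

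Nrf1, the gene of nuclear respiratory factor 1, hardly varied. Its CPM were 13.6, 14.1, 13.5 and 15.4 in 6-month females and 12.2 over 13.0 to 13.7 at 20 months, a difference of -0.12 (95% interval -0.32 to 0.07). In males it fell from 13.5 over 15.0 to 16.6 to 11.1 over 13.2 to 15.1 CPM (-0.22 on the log2 scale, SE 0.081, adjusted p = 0.025). The male groups overlap over much of their range, and the call was lost without 20-month M replicate 2 or 9. At 28 months the values were 0.16 in females (adjusted p = 0.26) and -0.11 in males (adjusted p = 0.48).

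Gabpa encodes the DNA-binding subunit of GABP, also called nuclear respiratory factor 2. Its CPM were 38.5, 38.6, 30.9 and 39.7 in 6-month females and 48.6 over 52.8 to 57.3 at 20 months. Males went from 34.4 over 35.7 to 47.7 CPM to 48.0 over 55.1 to 58.95. The groups are apart in both sexes, in males narrowly, where the top 6-month value is the library labelled M replicate 3. Gabpa rose by 0.53 (SE 0.11, adjusted p = 3.1e-05) and 0.51 (SE 0.086, adjusted p = 7.6e-07), but by 0.10 and 0.09 with the offsets. At 28 months in batch 1 it was back at 35.3 to 40.8 CPM in females and 33.4, 39.2, 43.5, 44.4 and 41.4 in males, 0.02 and 0.10 from 6 months.

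Tfam, the packaging and transcription factor of mitochondrial DNA, changed by small amounts. In males it fell from 45.8 over 52.8 to 55.4 CPM at 6 months to 34.8 over 38.2 to 47.5 at 20 months (-0.37, SE 0.096, adjusted p = 0.0011). In females the 6-month values of 43.5, 48.9, 48.3 and 50.2 CPM stood beside 38.2 over 43.3 to 46.2 at 20 months, and the difference of -0.15 did not pass. With the offsets both were larger, -0.61 in males and -0.43 in females, and both passed.

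At 28 months Tfam in females ran from 31.2 over 36.3 to 51.6 CPM, the top value being replicate 13 alone. The difference of -0.32 (SE 0.12, adjusted p = 0.043) was lost without the doubted libraries (-0.18, adjusted p = 0.42) and without any 1 of 6 single replicates. Males had 37.4, 37.8, 46.9, 44.4 and 47.5 CPM, a difference of -0.27 (adjusted p = 0.09) that passed without the doubted libraries (-0.25) and with the offsets (-0.37). Batch 2 controls were below 6 months by 0.31 in females (adjusted p = 0.031) and by 0.26 in males (adjusted p = 0.024).

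Sirt3 fell in all 4 of these age comparisons. Its CPM in 6-month females were 25.8, 28.9, 46.5 and 29.6, against 14.4 over 17.7 to 22.3 at 20 months. In males they were 29.4 over 39.4 to 48.7 against 18.4 over 22.5 to 25.5. The groups do not overlap, and the log2 fold changes were -0.87 (SE 0.17, adjusted p = 3.5e-05) and -0.84 (SE 0.14, adjusted p = 8.6e-07). With the offsets they were -0.33 in both sexes, past the threshold in males only (adjusted p = 0.12 in females).

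At 28 months Sirt3 was at 12.49 over 19.3 to 26.2 CPM in batch 1 females and at 27.6, 29.0, 24.8, 25.2 and 27.8 in batch 1 males. All 5 males lie below all 6-month males. The differences were -0.72 (SE 0.17, adjusted p = 0.0026) and -0.52 (SE 0.17, adjusted p = 0.022). With the doubted libraries left out the female value was -0.53 (adjusted p = 0.056), and without the library labelled 6-month F replicate 3, which has the top young value, -0.49. The male call was lost with the offsets (-0.31, adjusted p = 0.15) and without 28-month M replicate 14 or 6-month M replicate 5 or 6. Batch 2 controls, with ranges of 15.9 to 18.9 CPM in females and 18.6 to 25.7 in males, were lower than 6 months by 0.90 and 0.87.

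For batch 1 females of 28 months against 6 months, the calls were lost when the fit held just the 2 groups being compared. The values of Ppargc1a, Esrra, Ppard, Tfam and Sirt3 were nearly the same there. None of the 5 passed (adjusted p from 0.08 for Ppard to 0.2 for Tfam). The cause of this loss was not tested.

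None of the 10 passed with CaAKG feeding by edgeR, DESeq2 or limma-voom. In edgeR 2 of the 10 had an unadjusted p under 0.05, and 0.022% of all genes passed, 4 genes that were all higher. Of these 4 genes 2 are neutrophil and marrow markers, and no gene passed without the doubted libraries. Ppargc1a ran from 24.2 over 37.9 to 77.6 CPM in the 12 CaAKG males and from 34.2 over 47.1 to 138.7 in the 10 controls of the same batch. The ranges overlap widely, and the 3 highest mice are all controls. The difference was -0.67 (SE 0.25, unadjusted p = 0.0102, adjusted p = 0.58, 95% interval -1.16 to -0.17). It was -0.48 without control replicate 2 and -0.37 with limma-voom.

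Tfam was the other one, with a difference of -0.16 (unadjusted p = 0.0422, adjusted p = 0.73, 95% interval -0.32 to -0.0085), its CPM running from 30.3 over 39.5 to 43.0 with CaAKG and from 36.9 over 43.9 to 46.1 without. Ppargc1b differed by -0.39 (95% interval -0.78 to 0.0018) and Esrrg by -0.33 (adjusted p = 0.86). The interval of Nrf1 (-0.14 to 0.12) was narrow around 0, and that of Sirt3 (-0.21 to 0.25) lay around 0 but was wider. Esrra (0.06), Ppara (-0.16), Ppard (0.07) and Gabpa (-0.11) did not pass either. The median over the 10 was -0.14, beside 0.015 over all genes.

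The genes around these regulators were counted in lists, some of which share genes. Values are given in the order 20-month females, 20-month males, 28-month females and 28-month males, all against 6 months, and the medians stand beside those of all genes given above. Of all genes 18.2% rose and 17.8% fell in 20-month females, 22.5% and 22% in 20-month males, 9.82% and 8.97% in 28-month females, and 6.76% and 9.37% in 28-month males. With the offsets 16.9%, 29.3%, 11.5% and 10.3% of all genes passed in either direction. Without the doubted libraries these shares were 35.4%, 50.1%, 7.32% and 24.7%. Shares by direction are not given for these settings. Of 18 genes known as NRF1 and GABP targets none rose at any of the 4 age comparisons, and 12 fell in 20-month females, 13 in 20-month males, 13 in 28-month females and 8 in 28-month males. Their median log2 fold changes were -0.85, -0.87, -0.70 and -0.42. Atp5g1, a subunit of the ATP synthase ring, had log2 fold changes of -1.29, -1.299, -0.94 and -0.72 in that order, and Uqcrq of complex III fell by 1.52 and 1.45 at 20 months and by 0.84 in 28-month males. Hspe1, a mitochondrial chaperonin subunit, fell by 1.302 in 20-month males. With the offsets 5, 6, 9 and 6 fell, and 1 rose in 20-month males. Once the 14 doubted libraries were left out, 13, 14, 9 and 11 fell.

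Of 25 ERR and PGC-1 targets, a list that holds Esrra itself, 14 fell and 2 rose in 20-month females, 14 fell and 1 rose in 20-month males, 18 fell in 28-month females and 10 in 28-month males. The medians were -0.40, -0.35, -0.53 and -0.23. Cox5a, a subunit of cytochrome c oxidase, fell by 1.03, 1.00, 0.76 and 0.58, and Ndufb5 of complex I fell by 1.11, 1.06 and 0.87 in the first 3 of these. Vegfa, the blood vessel growth factor, fell by 0.94 in females and 0.76 in males at 28 months. With the offsets 5, 6, 13 and 4 fell and 0, 3, 0 and 0 rose. In the fit without doubted libraries 14, 17, 12 and 12 fell.

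Genes that transcribe and keep mitochondrial DNA were more often lower than higher. Of 19, 10 fell and 1 rose in 20-month females, 12 and 1 in 20-month males, 7 and 0 in 28-month females, and 5 and 1 in 28-month males (medians -0.48, -0.47, -0.39 and -0.28). Tefm, an elongation factor for that genome, fell by 0.85 in 20-month males, 0.65 in 28-month females and 0.44 in 28-month males, and Ssbp1, which coats single-stranded mitochondrial DNA, fell by 0.78, 0.84, 0.52 and 0.45. Without the doubted libraries 2 rather than 7 fell in 28-month females and 8 rather than 5 in 28-month males. With the offsets 5, 6, 4 and 3 fell. Of the 13 messenger RNAs of the mitochondrial genome itself 2, 6, 1 and 3 fell in the same order and none rose (medians -0.34, -0.53, -0.40 and -0.60). The female counts are near or below the shares of all genes that fell. With the doubted libraries left out 4, 8, 0 and 7 fell, and 1 rose in 20-month females. mt-Nd3 of complex I fell by 2.44 and 2.00 at 20 months in females and males and by 1.41 in 28-month females. With the offsets 3 rose and 1 fell in 20-month females and 4 rose and 2 fell in 20-month males, so the direction at 20 months turned with the scaling, and none passed at 28 months.

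Of 23 PPAR targets of fat oxidation, 8 fell and none rose in 28-month females (median -0.28), and 3 rose and none fell in 28-month males (median 0.12). Fabp3, the muscle fatty acid binding protein, fell by 1.06 in females. In males Hadha, a subunit of the mitochondrial trifunctional protein, rose by 0.53 and Cd36 by 0.41. Once the 14 doubted libraries were left out, 2 rather than 8 fell in females, and with the offsets 3 fell and 1 rose. The difference between the sexes was not tested for the list. At 20 months 2 rose and 4 fell in females and 4 rose and 6 fell in males, near or below the shares of all genes. Mlycd, the malonyl-CoA decarboxylase, fell in both sexes (by 0.84 and 0.77), Ech1, a peroxisomal and mitochondrial isomerase of fat oxidation, fell by 0.68 in females and Plin5, a lipid droplet protein, by 0.83 in males. Cd36, a fatty acid transporter, rose in both (0.60 and 0.67). With the offsets 1 rose and none fell in females, and 7 rose and 2 fell in males, so the male direction turned.

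Upstream of the coactivators, 26 genes of AMPK, calcium and CREB signalling held 10 that rose and 3 that fell in 20-month females and 12 and 5 in males (medians 0.31 and 0.22, with 0.27 and -0.002 at 28 months). Mef2a, a transcription factor at the Ppargc1a promoter, rose by 0.91 (SE 0.13, adjusted p = 3.6e-08) and 0.87. Prkag1, a subunit of AMPK, fell in all 4 comparisons, by 0.72 and 0.67 at 20 months and 0.43 and 0.36 at 28 months. With the offsets 4 rose and 0 fell in 20-month females and 5 and 2 in males. At 28 months 2 rose and 1 fell in each sex without the offsets. With them 2 rose and 1 fell in females, and 0 rose and 0 fell in males. Without the doubted libraries 6 rose and 0 fell in 28-month females, and 3 rose and 1 fell in 28-month males.

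The coregulators and partners of these receptors, 22 genes, rose more often than they fell: 14 against 3 in 20-month females (median 0.59), 13 against 3 in 20-month males (0.41), 8 against 0 in 28-month females (0.13) and 5 against 2 in 28-month males (0.11). Ncoa2, a coactivator of nuclear receptors, rose by 1.27 and 1.33 at 20 months. With the offsets the split was 5 against 4, 4 against 6, 2 against 1 and 2 against 6, so the direction turned in males of both ages. In the fit without doubted libraries 5 rather than 8 rose in 28-month females. Pprc1, the third member of the PGC-1 family, rose by 0.61 in 28-month females.

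Other sirtuins divided at 20 months (medians of 6 genes -0.32 and -0.46, with -0.21 and -0.17 at 28 months). Sirt1, the nuclear deacetylase that acts on PGC-1 alpha, rose by 0.57 in females and 0.62 in males, while Sirt2 fell by 0.43 and 0.56 and Sirt7 by 1.05 and 0.81. At 28 months 2 of the 6 listed sirtuins fell in females and 1 in males, Sirt2 in both (0.31 and 0.35). With the offsets none of the 6 passed in 20-month females or at 28 months in either sex by edgeR, and 1 rose and 2 fell in 20-month males. Without the doubted libraries none passed in 28-month females. Of 12 tested SIRT3 substrates 1 rose and 3 fell, 4 rose and 2 fell, 1 rose and 5 fell, and 4 rose and 1 fell in the same order (medians -0.09, -0.10, -0.28 and 0.07). The 20-month counts of this short list are near the shares of all genes. With the doubted libraries left out 2 rather than 5 fell in 28-month females, and 4 rather than 1 in 28-month males. With the offsets 1 rose and 1 fell, 5 rose and 1 fell, 1 rose and 4 fell, and 3 rose and 1 fell. Foxo3, a transcription factor, rose by 1.41, 1.31 and 1.00 in the first 3, and Ndufa9 of complex I fell by 0.62, 0.55 and 0.61. With CaAKG no gene of any of these lists passed.

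**Figure D3:**
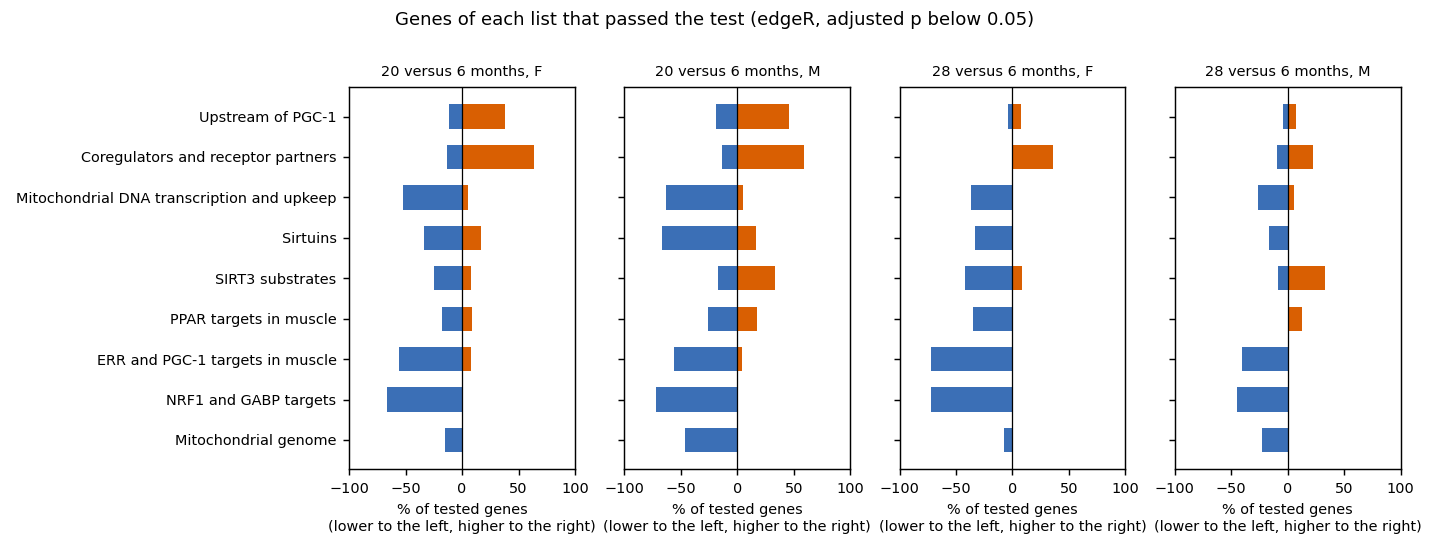
Share of the tested genes of each list that passed edgeR's test in 4 age comparisons, lower to the left in blue and higher to the right in orange. Targets of NRF1 and GABP and of ERR and PGC-1 lie to the left in each panel, coregulators and receptor partners mostly to the right.

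Markers of other cell types moved with the age results. Endothelial markers summed to 115 to 309 CPM in 6-month females and 513 to 674 at 20 months, and to 87.5 to 175 and 528 to 697 in males, with all 8 markers higher in both sexes. Smooth muscle and pericyte markers went from 160 to 366 CPM up to 642 to 711 in females, and from 170.5 to 238 up to 613 to 828 in males, 6 of 6 being higher. At 28 months in batch 1 the endothelial sums were 89.3 to 397 CPM in females (3 of 8 higher) and 247 to 420 in males (8 of 8), and 5 of 6 smooth muscle and pericyte markers were higher in males and 0 of 6 in females. Adipocyte markers summed to 133.4 to 248.8 CPM in 6-month males and 250.2 to 929.2 at 20 months, 6 of 6 tested being higher, and to 247.1 to 1040 at 28 months, with 4 of 6 higher. In females none of the 6 passed at either age, with sums of 188.6 to 289.4 CPM at 6 months, 248.1 to 359.8 at 20 months and 141.7 to 747.6 at 28 months. Fast-fibre markers were split at 20 months, 1 higher and 4 lower of 9 in females and 1 and 5 in males. Slow-fibre markers were split at 20 months, 2 higher and 3 lower of 8 in females and 2 and 6 in males. Between the 28-month female groups, 7 of 9 fast-fibre markers were lower in batch 2 than in batch 1. So were 8 of 8 neutrophil and marrow markers and 11 of 12 keratinocyte markers. In that comparison 5 of 8 endothelial and 5 of 6 smooth muscle and pericyte markers were higher, and 1 of 8 slow-fibre markers. The part of these cells and fibres in the changes and batch differences of the 10 regulators was not tested.

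Around the group means some of the regulators varied together from mouse to mouse. Esrra and Sirt3 had the highest of 45 pairwise correlations of log2 CPM (Pearson's r = 0.80, Spearman's rho = 0.78, n = 77, adjusted permutation p = 5e-05 and 0.00015, from the smallest raw p that 100000 permutations can give). It was 0.80 without the 2 replicates farthest from the Esrra median, 0.68 without the doubted libraries and 0.73 with the offsets. In all 17 of the 45 pairs passed for r after Benjamini-Hochberg adjustment, 12 without the doubted libraries. The permutations moved values across all replicates without regard to group, so unequal spreads of the groups were not allowed for. Genes of 1 replicate share its base composition and its library depth, and depth differed between mice of 1 group. The part of these in the correlations was not tested.

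Ppargc1a went with Ppara (r = 0.64, rho = 0.63, adjusted permutation p = 5e-05 and 0.00015), and r was 0.61 without the 2 farthest replicates, 0.75 without the doubted libraries and 0.57 with the offsets. Ppargc1a and Ppargc1b went weakly in opposite directions (r = -0.26, rho = -0.28, adjusted permutation p = 0.06 and 0.04), past the threshold for rho only. Without the doubted libraries both passed (r = -0.38, rho = -0.40, adjusted permutation p = 0.01 and 0.0083). With the offsets r passed and rho did not (-0.26 and -0.26, adjusted permutation p = 0.038 and 0.057). Ppargc1b went with Esrrg (r = 0.58, rho = 0.40), and r was 0.41 without the 2 farthest replicates. Between Ppargc1a and Esrra r was 0.14 (rho = 0.11, adjusted permutation p = 0.38 and 0.51). With the offsets this pair passed (r = 0.35, rho = 0.38, adjusted permutation p = 0.0075 and 0.0026). Esrrg and Ppard had an r of 0.68 but a rho of 0.41, and r was 0.42 without the doubted libraries. Nrf1 passed with none of Gabpa (0.11), Tfam (0.11) and Sirt3 (0.13).

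**Figure D4:**
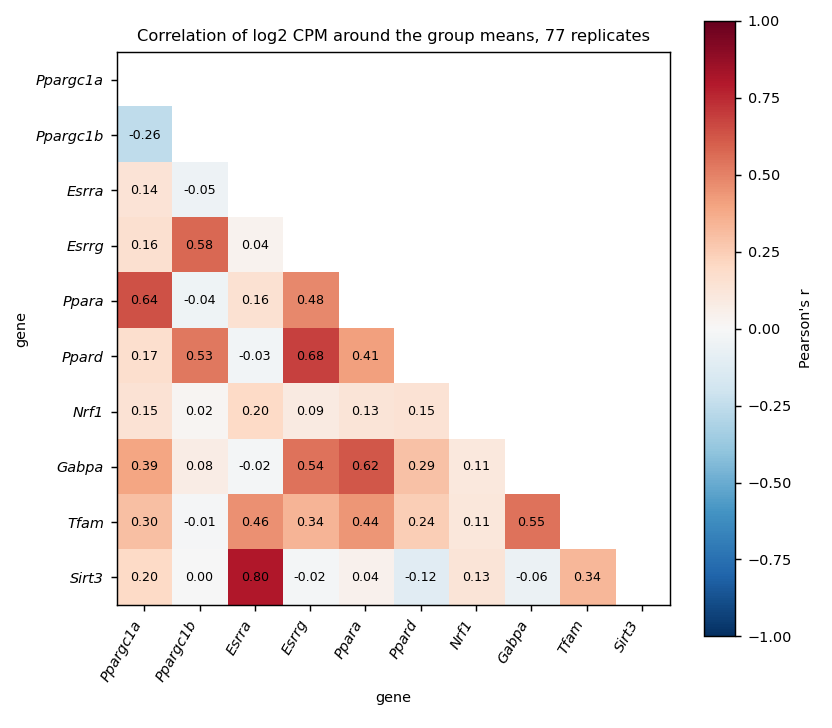
Pearson's r of log2 CPM for the 45 pairs of regulators over 77 replicates after each group's mean was taken off, from blue (-1) to red (1). Esrra and Sirt3 have the highest value (0.80), and Ppargc1a is closest to Ppara (0.64) and below 0 only with Ppargc1b (-0.26).

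Of 13054 genes ranked by the same measure over the 77 replicates, those most like Ppargc1a were Pdxk (r = 0.74), the kinase of vitamin B6, Fnip1 (0.68) and Fnip2 (0.68), partners of folliculin, Ell (0.67), a transcription elongation factor, and Gm15446 (0.65). Their r with the length and GC offsets was 0.63 to 0.77. Those most like Esrra were Cyc1 (0.90), which encodes cytochrome c1 of complex III, Tomm40l (0.89), Txn2 (0.89), the mitochondrial thioredoxin, Tbrg4 (0.89) and Csnk1g2 (0.88), with r of 0.84 to 0.86 under the offsets. These are descriptions of how levels go together, with no test.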

How the data were processed

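The submitters' processing notes name FastQC, STAR 2.7.11b (an aligner), RSEM 1.3.3 (a quantifier) and mm10. No source used here gives the annotation release, how strand was handled, or a filter. The authors deposited 1 table of expected counts, estimated by RSEM, for 36904 gene IDs, in which 8.99% of the values used were not whole (tolerance 1e-06). Its 55 columns that match no sample label were not used.

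Expected counts were rounded, and 18218 genes passed filterByExpr (minimum count 10, minimum total 15). One edgeR 4.0.16 quasi-likelihood fit with TMM factors and 11 group means gave every fold change. CPM carry the TMM factors, except marker sums, which use library totals. Alternatives used limma 3.58.1, DESeq2 1.42.0, other scalings and filters, and left out libraries or single replicates. Lengths and GC content were known for 97.5% of tested genes. Log2 CPM for correlations had a prior count of 2. The statistics were tested on simulated data.

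The 10 genes and all lists were chosen with earlier results of these data known. By rule, all 10 are named, with up to 3 genes of smallest p per list and comparison, and the 5 genes most like Ppargc1a and Esrra. The values of 1 listed gene are not reported here. Titles give replicate numbers only, so p-values measure the spread between these samples. The title tag M28 was read as 28 months.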

Additional observations from a re-analysis of the deposited data

Results flagged for a closer look

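Within the groups of 4 to 10 replicates, 100 sets of a gene in a group were searched for a replicate standing far from the rest, and 10 had one, where chance gives about 1 in 20. They come from 8 libraries. Of the libraries against their sex label, the one labelled 12-month M replicate 3 was low in Esrra (184.2 CPM) and high in Ppargc1b (6.06 CPM), the one labelled 6-month F replicate 3 was low in Gabpa (30.9 CPM), and the one labelled 6-month M replicate 3 was high in Gabpa (47.7 CPM). 12-month F replicate 2 was high in Esrrg (166.2 CPM) and Ppargc1b (10.2 CPM). 20-month M replicate 3 was high in Esrra (198.9 CPM) and 20-month M replicate 8 in Ppara (69.2 CPM). At 28 months F batch 2 replicate 7 was high in Ppargc1b (15.6 CPM) and F batch 1 replicate 13 in Tfam (51.6 CPM).

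The change of Ppard from 6 to 28 months differed between the sexes by a test of the difference itself (male minus female -1.04, edgeR adjusted p = 0.038). This difference also passed without the doubted libraries, but not with the length and GC offsets. The values of Ppard by sex stand in the report.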

How the results depend on the processing

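The report's counts of regulators called by edgeR were, in 20-month females, 20-month males, 28-month females, 28-month males (each against 6 months) and with CaAKG, 8, 9, 5, 2 and 0. With length and GC offsets 5 were called in 20-month females and 1 in 28-month males. In 28-month females the count was 3 without libraries against their sex label, 2 without these and those with skin or marrow transcripts, and 0 when the fit held just the 2 groups being compared. In 28-month males it was 4 with limma-voom and 6 with batch 2 controls. Leaving out 1 replicate at a time gave 7 to 8, 8 to 9, 2 to 5, 0 to 3 and 0 to 0. The 2 in 28-month females came without the library labelled 6-month F replicate 3, the 0 in males without 6-month M replicate 6, and 1 in males without 28-month M replicate 14 or 6-month M replicate 5. Esrrg in 28-month females turned to 0.95 with batch 2 controls. The offsets turned the correlation of Esrra and Gabpa from -0.018 to 0.49 and that of Gabpa and Sirt3 from -0.057 to 0.28. The cause of these changes was not tested.

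With the replicate number as a block 8, 9 and 0 were called in 20-month females, 20-month males and with CaAKG. Same-numbered replicates correlated at 0.0053 to 0.083, -0.14 to 0.058 and -0.18 to 0.17, and 2 of 4, 1 of 6 and 3 of 10 numbers correlated best with their own. The 28-month and 6-month groups share 0 numbers, so no such fit was possible there. Levels of Ppargc1b, the least abundant, are the least precise by counting.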
